A study of Mus musculus with 19 samples.

Results

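The 7 aryl hydrocarbon receptor (AhR) pathway genes described here are the receptor Ahr, its dimer partners Arnt and Arnt2, the repressor Ahrr and the classical targets Tiparp, Cyp1b1 and Cyp1a1, out of 22911 gene symbols on the arrays. They were chosen by name, through the RefSeq transcripts that the array's probes carry, and 9 of 56605 probes represent them. Ahr, Arnt2, Tiparp, Cyp1b1 and Cyp1a1 have 1 probe each, and Arnt and Ahrr have 2. Of the 7 genes, 6 were well above background on enough arrays to be tested, and Cyp1a1 was not.

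Transcripts were measured in hippocampal tissue of mice aged 8 months, 1 Agilent array for each mouse. The urolithin A group (UA, n = 6) is APP/PS1 mice given urolithin A, a gut-microbial metabolite of dietary ellagitannins, at 200 mg per kg per day by gavage in DMSO, beginning at an age of 6 months and continued for 2 months. The APP/PS1 vehicle group (n = 7) is the same transgenic strain given DMSO alone, and the wild-type group (WT, n = 6) is littermates given DMSO alone. All 3 groups therefore received DMSO, no WT mouse received urolithin A, and an effect of the solvent cannot be read from these groups. APP/PS1 mice carry transgenes driven by the mouse prion protein promoter, and they model amyloid deposition, not the whole of Alzheimer's disease. The comparison of UA with APP/PS1 vehicle addresses the compound, that of APP/PS1 vehicle with WT the transgenes, and that of UA with WT both at once.

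AhR is a ligand-activated transcription factor of the bHLH-PAS family. Without ligand it is held in the cytosol by a complex that includes HSP90, the co-chaperone p23 (Ptges3) and SRC; with ligand it enters the nucleus, pairs with ARNT or, in neurons, also with ARNT2, and binds DNA at the core letters GCGTG. Its ligands include planar pollutants and products of tryptophan metabolism such as kynurenine. AHRR, itself an AhR target, competes with AhR for ARNT, and TIPARP, another target, ADP-ribosylates AhR and limits its activity. CYP1A1 and CYP1B1 are monooxygenases whose transcription is the usual readout of an active receptor. Urolithin A has been described as a ligand of the human receptor in cultured cells. Whether it activates or blocks the receptor in these mice was not measured.

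The stretches upstream of the target and repressor genes are printed to show where the core letters that AhR with ARNT binds occur in them. RefSeq promoter sequences (GRCm38.p6) were at hand for 6 of the 7 genes; Ahr is the gene without one. The 250 bases before each annotated start were searched for GCGTG on both strands. Each stretch runs 5′ to 3′ on the gene's strand, with the matches in capitals (CACGC is GCGTG on the opposite strand).
Tiparp, chr3:65528257-65528301, plus strand: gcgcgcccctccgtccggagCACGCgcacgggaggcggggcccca
Cyp1b1, chr17:79715113-79715157, minus strand: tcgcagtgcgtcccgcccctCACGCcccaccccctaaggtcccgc
Cyp1a1, chr9:57697539-57697583, plus strand: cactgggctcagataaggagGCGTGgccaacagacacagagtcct
Ahrr, chr13:74292334-74292458, minus strand: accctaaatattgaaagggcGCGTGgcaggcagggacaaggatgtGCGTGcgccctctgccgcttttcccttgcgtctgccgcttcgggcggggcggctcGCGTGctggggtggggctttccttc
Ahrr held 3 matches, starting 107, 82 and 27 bases before the start. Tiparp held 1 at 170 bases, Cyp1b1 1 at 76 bases, Cyp1a1 1 at 54 bases and Arnt 1 at 29 bases, and the Arnt2 window held none. The letters are common: 28.2% of 32851 mouse promoter windows of this length held at least 1 match and 2.58% held 3 or more, so a match here describes the sequence and does not mark a bound site. The longer form TNGCGTG, found in 4.1% of windows, was met once in the Ahrr stretch and in none of the other 3 printed.

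Levels are given on a log2 scale on which the 75th percentile of each array's signal is 0, and differences between groups are differences of these log2 levels. The level of 1 probe is not set against that of another. A spot was called well above background by the scanner software's own flag. The 75th percentile lay between 664 and 1776 intensity units over arrays, 51.4% to 59.4% of probes were well above background on each array, and no spot was saturated. The arrays lay on 3 slides: slide 1 with 2 arrays of the APP/PS1 vehicle group and 6 of WT, slide 2 with 3 of UA and 5 of APP/PS1 vehicle, and slide 3 with 3 of UA. Markers of choroid plexus, the tissue beside the hippocampus that makes cerebrospinal fluid, differed widely between arrays of every group. Their mean level ran from -2.85 to 3.21 in UA, from -4.46 to 3.83 in APP/PS1 vehicle and from -2.25 to 3.19 in WT, where replicate 3 alone was above 0. All 8 neuronal markers were well above background on all 19 arrays, as neural tissue would give; markers particular to the hippocampus were not examined.

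Ahr, the receptor, fell in APP/PS1 vehicle hippocampus relative to WT, and its levels in UA-treated APP/PS1 hippocampus lay above those in APP/PS1 vehicle on every array. Its level was -0.23, -0.38, -0.35, -0.53, -0.36 and -0.48 in UA. It was -0.94, -0.67, -0.65, -0.76, -0.64, -0.59 and -0.93 in APP/PS1 vehicle, and -0.19, -0.16, -0.72, -0.28, -0.27 and -0.17 in WT. All 19 spots were well above background. The lowest UA array stood above the highest APP/PS1 vehicle array, 5 of 6 WT arrays did too, and WT replicate 3 lay among the APP/PS1 vehicle arrays.

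The Ahr level averaged -0.39 ± 0.10 in UA (SD, n = 6), -0.74 ± 0.14 in APP/PS1 vehicle (SD, n = 7) and -0.30 ± 0.21 in WT (SD, n = 6). For APP/PS1 vehicle against WT the difference was -0.44 (SE 0.09, 95% interval -0.63 to -0.25; limma adjusted p = 0.0116), a level 0.737 times that of WT, with 7 of 7 APP/PS1 vehicle arrays below the WT mean. For UA against APP/PS1 vehicle it was 0.35 (SE 0.09, 95% interval 0.16 to 0.54), a level 1.28 times that of vehicle. That difference did not pass the adjustment over all genes (limma adjusted p = 0.126), with 6 of 6 UA arrays above the vehicle mean. UA against WT differed by -0.09 (SE 0.09, 95% interval -0.29 to 0.11; adjusted p = 0.813). The first 2 of these differences share the 7 APP/PS1 vehicle arrays and are not independent of each other. In tissue RNA, fewer cells expressing Ahr and less Ahr RNA in each cell cannot be told apart.

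**Figure D1:**
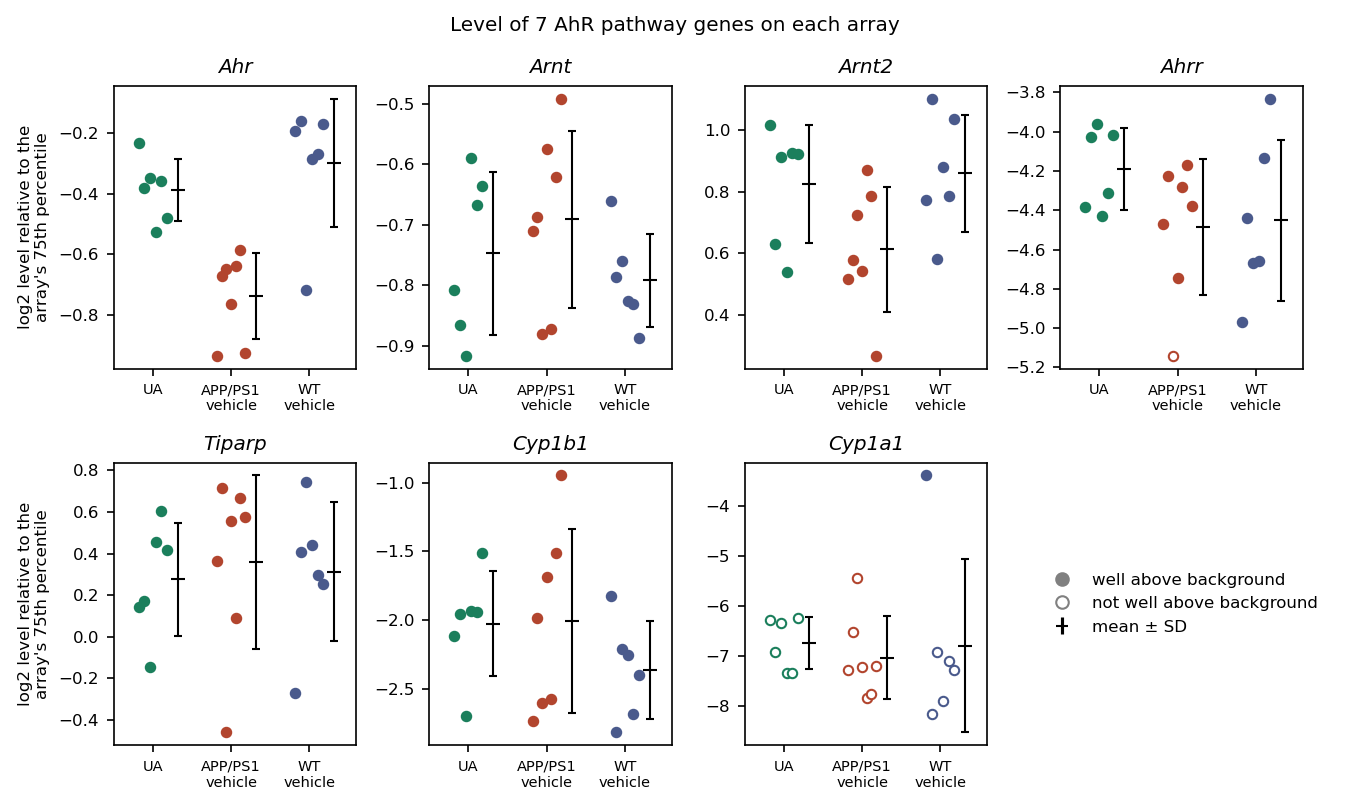
Log2 level (relative to the array's 75th percentile) of each AhR pathway gene, 1 point per array, for UA (n = 6), APP/PS1 vehicle (n = 7) and WT (n = 6), with mean ± SD beside the points and open circles for spots not well above background; each panel has its own axis. For Ahr, the UA points lie between -0.53 and -0.23 and the APP/PS1 vehicle points between -0.94 and -0.59, with no overlap, whereas the groups overlap in every other panel.

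Across all 25599 genes tested, 0% were called for UA against APP/PS1 vehicle, where no gene passed (3962 had an unadjusted limma p under 0.05), 5.03% for APP/PS1 vehicle against WT and 0.0898% for UA against WT. Of the 6 members tested, 0, 1 and 0 were called in these 3 comparisons, Ahr being the 1. Groups did not overlap for 0.845% of genes in UA against APP/PS1 vehicle, for 2.33% in APP/PS1 vehicle against WT and for 1.04% in UA against WT. Among the members this held for 1 (Ahr), 0 and 0. The median absolute difference over all genes was 0.14, 0.17 and 0.11 in the same 3 comparisons. In APP/PS1 vehicle against WT, 731 genes were called higher and 557 lower, so that 56.8% of calls were higher, against 42.9% after normexp and quantile normalization and 40.2% in the authors' deposited values. By unadjusted p, Ahr was number 232 of all genes in UA against APP/PS1 vehicle and number 283 in APP/PS1 vehicle against WT.

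Within slide 1, Ahr differed by -0.51 between 2 APP/PS1 vehicle and 6 WT arrays (exact permutation test, two-sided, p = 0.0714; the smallest p possible with 28 regroupings is 0.0357). Within slide 2 it differed by 0.39 between 3 UA and 5 APP/PS1 vehicle arrays, whose ranges did not overlap. The exact permutation test (two-sided) gave p = 0.0179, the smallest that 56 regroupings allow (adjusted over 6 members p = 0.107). The share of all genes with separate ranges at 3 against 5 arrays was not computed. With slide as a fixed block the APP/PS1 vehicle against WT difference was as large, -0.51, and no longer called (limma adjusted p = 0.125). UA and WT arrays shared no slide. Without WT replicate 3, the WT array with choroid plexus markers at 3.19, Ahr differed by -0.52 between APP/PS1 vehicle and WT (limma adjusted p = 6.88e-04). That is the smallest p met on leaving out 1 array of these 2 groups, and the largest was 0.0386.

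The choroid plexus markers and Ahr were compared array by array. The 3 highest Ahr levels in the WT group, -0.16, -0.17 and -0.19, came from the arrays with the lowest marker means, -2.25, -1.83 and -1.60. Its lowest WT level, -0.72, came from the array with the highest. In UA its highest level, -0.23, came with the lowest marker mean, -2.85, and its lowest, -0.53, with a mean of 2.65. In APP/PS1 vehicle the lowest Ahr levels, -0.94 and -0.93, came with marker means of 2.54 and 3.83, but the highest, -0.59, came with a mean of 2.37. The next highest in that group, -0.64 and -0.65, came with its lowest marker means, -1.31 and -4.46. The array means fell into separate low and high ranges, so no correlation is given for them. With the marker mean as a covariate, the Ahr difference was 0.35 for UA against APP/PS1 vehicle (limma adjusted p = 0.0546) and -0.36 for APP/PS1 vehicle against WT (adjusted p = 0.0125). Of the 10 choroid plexus markers, 5 were well above background on all arrays and 0 were called in any of the 3 comparisons; their median difference was -0.04 for UA against APP/PS1 vehicle, 1.77 for APP/PS1 vehicle against WT and 1.72 for UA against WT.

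**Figure D2:**
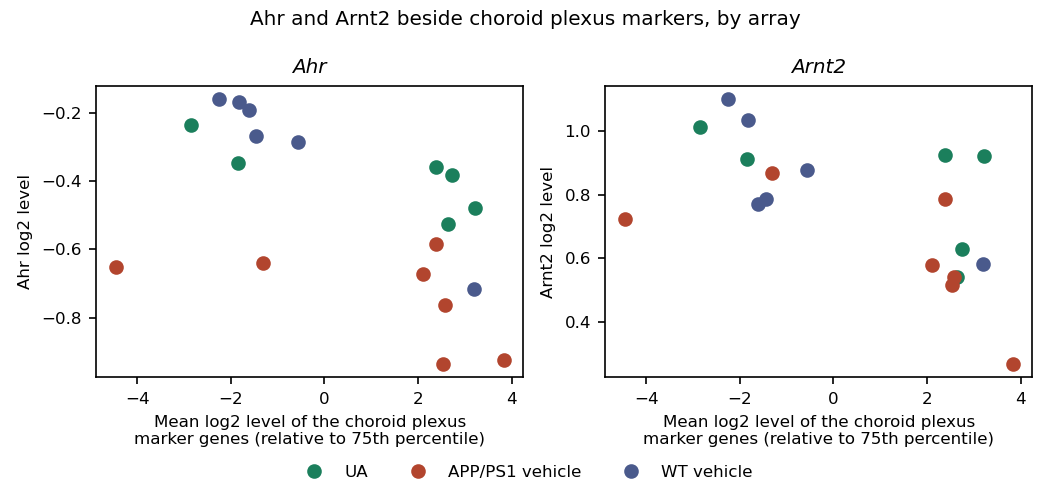
Log2 level of Ahr (left) and Arnt2 (right) against the mean log2 level of 10 choroid plexus marker genes, 1 point per array, coloured by group. The marker means split into low and high arrays; at either end the APP/PS1 vehicle points lie below the UA points for Ahr, and most of the lowest Ahr and Arnt2 points of each group lie at high marker means.

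Other cell-type markers gave these values beside Ahr. Microglial markers averaged 1.66 to 2.08 in UA, 2.0 to 2.16 in APP/PS1 vehicle and 1.42 to 1.67 in WT, and 6 of 10 rose in APP/PS1 vehicle against WT. Astrocyte markers averaged 2.52 to 2.72 in UA, 2.55 to 2.73 in APP/PS1 vehicle and 2.18 to 2.47 in WT, and 3 of 8 rose. No marker of neurons (8 tested), oligodendrocytes (7), endothelium (10), mural cells (10), meninges and fibroblasts (10) or blood (4) was called in any comparison. The part of these cells in the Ahr differences was not tested, except that the oligodendrocyte marker mean as a covariate left 0.30 for UA against APP/PS1 vehicle (limma adjusted p = 0.110) and -0.40 for APP/PS1 vehicle against WT (adjusted p = 0.00465).

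The dimer partners did not pass the test in any comparison. Arnt, the general partner that also serves the hypoxia-inducible factors, was -0.81, -0.87, -0.92, -0.59, -0.67 and -0.64 in UA. It was -0.71, -0.69, -0.88, -0.57, -0.87, -0.62 and -0.49 in APP/PS1 vehicle and -0.66, -0.79, -0.76, -0.83, -0.83 and -0.89 in WT. The 3 groups overlapped over most of their range. Its difference was -0.06 for UA against APP/PS1 vehicle (95% interval -0.22 to 0.10; limma adjusted p = 0.741), 0.10 for APP/PS1 vehicle against WT (-0.06 to 0.26; adjusted p = 0.426) and 0.04 for UA against WT (-0.12 to 0.21; adjusted p = 0.901). The first interval does not reach the Ahr difference of 0.35 (95% interval 0.16 to 0.54) in the same comparison, but Arnt and Ahr were not tested against each other. Arnt deviations from the group mean followed those of the endothelial marker mean (Pearson's r = 0.67, Spearman's rho = 0.63). Permutation p was 0.00617 and 0.0101, adjusted over 54 relations p = 0.0416 and 0.0682. Without the 2 arrays farthest from the median r was 0.52.

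The second Arnt probe was dim. It was well above background on 0 of 6 UA, 4 of 7 APP/PS1 vehicle and 2 of 6 WT arrays, and the 4 APP/PS1 vehicle arrays read between -4.92 and -3.63. The other 3 APP/PS1 vehicle arrays read between -6.20 and -5.10, so the groups overlapped. The measured means were -5.46 in UA and -4.88 in APP/PS1 vehicle (limma over all probes, adjusted p = 0.383), and no fold is given because both groups hold spots not well above background. The difference between the 2 Arnt probes was not tested.

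Arnt2, the partner found mainly in brain and kidney, was 1.02, 0.63, 0.91, 0.54, 0.93 and 0.92 in UA. It was 0.52, 0.58, 0.72, 0.54, 0.87, 0.79 and 0.27 in APP/PS1 vehicle and 0.77, 1.10, 0.58, 0.88, 0.79 and 1.04 in WT. The APP/PS1 vehicle arrays reached lower than both other groups, and all 3 overlapped. The differences had the signs seen for Ahr, 0.21 for UA against APP/PS1 vehicle (SE 0.11, 95% interval -0.02 to 0.44; limma adjusted p = 0.354) and -0.25 for APP/PS1 vehicle against WT (SE 0.11, 95% interval -0.48 to -0.02; adjusted p = 0.179), and neither passed the adjusted threshold. UA against WT differed by -0.03 (adjusted p = 0.956). Within slide 1 the 2 APP/PS1 vehicle arrays reached 0.579 and the 6 WT arrays began at 0.582, a gap of less than 0.01. The difference was -0.31 (exact permutation test, two-sided, p = 0.0714, adjusted over 6 members p = 0.214). The share of all genes with separate ranges at 2 against 6 arrays was not computed.

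Ahrr, the repressor, was dim, and its brighter probe was well above background on 18 of 19 arrays, the exception being APP/PS1 vehicle replicate 3. It read -4.38, -4.03, -3.96, -4.43, -4.31 and -4.02 in UA. It read -4.47, -4.22, -5.14, -4.74, -4.28, -4.17 and -4.38 in APP/PS1 vehicle and -4.97, -4.44, -4.67, -4.66, -4.13 and -3.83 in WT. The UA arrays lay in the upper part of the ranges of the other groups and did not separate from them. The difference was 0.30 for UA against APP/PS1 vehicle (95% interval -0.08 to 0.67; limma adjusted p = 0.421), -0.04 for APP/PS1 vehicle against WT (adjusted p = 0.921) and 0.26 for UA against WT (adjusted p = 0.708). The second Ahrr probe was well above background on 1 of 19 arrays only, WT replicate 6, and was not tested.

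Of the targets, Tiparp and Cyp1b1 were well above background on all 19 arrays. Tiparp, the mono-ADP-ribosyltransferase that restrains AhR, was 0.14, 0.17, -0.14, 0.45, 0.61 and 0.42 in UA. It was 0.36, 0.71, -0.46, 0.56, 0.09, 0.67 and 0.58 in APP/PS1 vehicle and -0.27, 0.41, 0.74, 0.44, 0.30 and 0.26 in WT. Each group spread over more than the gap between any pair of group means, and APP/PS1 vehicle replicate 3 was the lowest array. The difference was -0.08 for UA against APP/PS1 vehicle (SE 0.19, 95% interval -0.47 to 0.31; limma adjusted p = 0.858), 0.05 for APP/PS1 vehicle against WT (-0.35 to 0.44; adjusted p = 0.901) and -0.04 for UA against WT (-0.44 to 0.37; adjusted p = 0.978). For UA against APP/PS1 vehicle the interval stops short of the Ahr difference of 0.35, but it overlaps the Ahr interval of 0.16 to 0.54. Tiparp and Ahr were not tested against each other.

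Cyp1b1, a monooxygenase of oestrogens and polycyclic hydrocarbons that brain pericytes, endothelium and meninges express, was -2.11, -1.96, -2.69, -1.93, -1.94 and -1.52 in UA. It was -2.74, -1.98, -2.60, -1.69, -2.57, -1.51 and -0.95 in APP/PS1 vehicle and -1.83, -2.81, -2.21, -2.25, -2.68 and -2.40 in WT. The highest array was APP/PS1 vehicle replicate 7 and the lowest WT replicate 2, APP/PS1 vehicle spread the most, and the groups overlapped. Its difference was -0.02 for UA against APP/PS1 vehicle (SE 0.26, 95% interval -0.58 to 0.54; limma adjusted p = 0.980), 0.36 for APP/PS1 vehicle against WT (SE 0.26, -0.20 to 0.91; adjusted p = 0.417) and 0.34 for UA against WT (SE 0.27, -0.24 to 0.91; adjusted p = 0.746). Cyp1b1 is the member with the widest intervals, and a difference of the size of that in Ahr was not detectable for it with these arrays. Its deviations from the group mean followed those of the meningeal and fibroblast marker mean (Pearson's r = 0.70, Spearman's rho = 0.62, permutation p = 0.00543 and 0.012, adjusted over 54 relations p = 0.0416 and 0.072, n = 19; r = 0.64 without the 2 arrays farthest from the median). This was not particular to that list. The endothelial mean gave r = 0.62 and rho = 0.59 (adjusted permutation p = 0.0681 and 0.0826). The mural mean gave r = 0.59 and rho = 0.55 (adjusted permutation p = 0.191 and 0.168). For the choroid plexus mean no correlation is given. It was 3.83 on the highest Cyp1b1 array and -2.25 on the lowest, but 2.54 on the lowest APP/PS1 vehicle array.

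Cyp1a1, the classical target, was well above background on 1 of 19 arrays, WT replicate 1, at -3.38. It was not well above background on any of the 6 UA arrays or the 7 APP/PS1 vehicle arrays. No difference was computed for it, and the readings of the 18 other arrays, at -5.43 or lower, have no order. Cyp1a2, the other member of its family, was well above background on 0 arrays. Neither an induction nor a repression of Cyp1a1 or Cyp1a2 by the compound was detectable at this sensitivity.

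**Figure D3:**
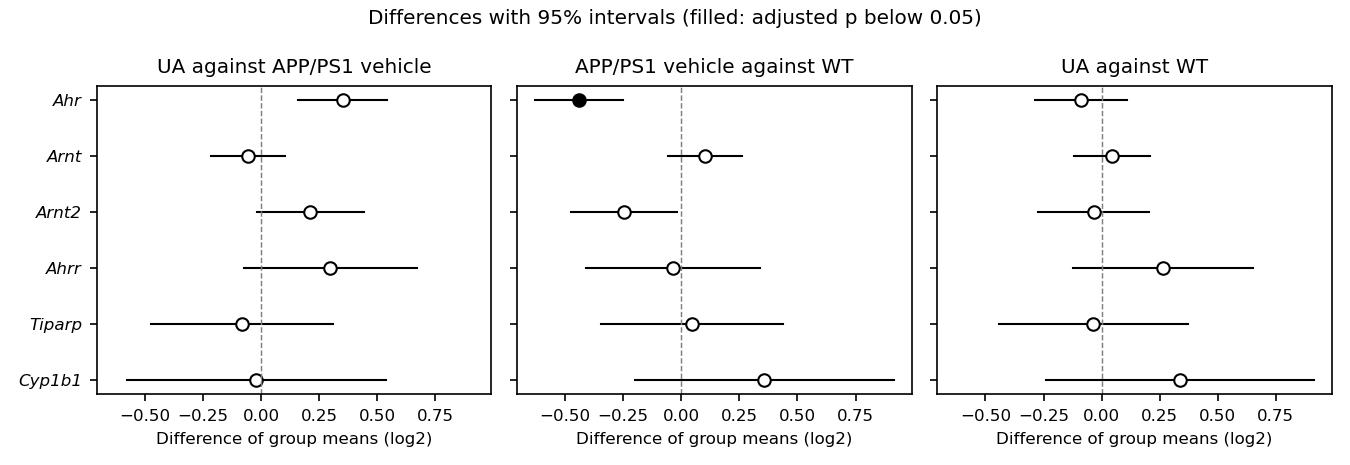
Difference of group means (log2) with its 95% interval for the 6 members tested, in the 3 comparisons; filled points have a limma adjusted p under 0.05. Ahr in APP/PS1 vehicle against WT, at -0.44, is the 1 filled point, and the intervals of the targets Tiparp and Cyp1b1 include 0 in all 3 comparisons.

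No target passed the test for following Ahr across arrays. Deviations from the group means were compared between Ahr and the 5 other members tested over all 19 arrays, 5 relations in all, with permutation within groups. For Tiparp, Pearson's r was -0.42 and Spearman's rho -0.43 (permutation p = 0.0887 and 0.0788, adjusted p = 0.148 and 0.197). For Cyp1b1, r was -0.22 and rho -0.25 (permutation p = 0.374 and 0.331, adjusted p = 0.468 and 0.341). Neither relation passed the threshold, and the sign of both turned with the choroid plexus marker mean as a covariate, to r = 0.29 for Tiparp (adjusted p = 0.284) and 0.34 for Cyp1b1 (adjusted p = 0.245). In UA the lowest Tiparp array, -0.14, had a marker mean of -1.85 and the highest, 0.61, a mean of 2.39. In APP/PS1 vehicle the lowest, -0.46, had a mean of -4.46 and the highest, 0.71, a mean of 2.10, and in WT the lowest, -0.27, had -1.60 and the highest, 0.74, had 3.19. No direction between Ahr and its targets is therefore read from these arrays.

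For Ahrr, r was 0.15 and rho 0.25 (permutation p = 0.609 and 0.341, adjusted p = 0.609 and 0.341), and for Arnt, r was -0.38 and rho -0.38 (permutation p = 0.0880 and 0.126, adjusted p = 0.148 and 0.210). Without the 2 arrays whose Ahr deviated most, WT replicate 3 and APP/PS1 vehicle replicate 1, r was -0.32 for Tiparp, -0.53 for Cyp1b1, 0.05 for Ahrr and -0.58 for Arnt. Within slide 1 (8 arrays) r was -0.47 for Tiparp, 0.03 for Cyp1b1, 0.33 for Ahrr and -0.11 for Arnt. Within slide 2 (8 arrays) it was -0.29, -0.56, -0.11 and -0.55 for the same 4 genes.

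Arnt2 was the member whose relation with Ahr passed the threshold. Over the 19 arrays r was 0.76 and rho 0.79 (permutation p = 1.1e-04 and 2.5e-04, adjusted p = 5.5e-04 and 0.00125), r was 0.79 without WT replicate 3 and APP/PS1 vehicle replicate 1, and it was 0.78 within slide 1 and 0.93 within slide 2. The relation was not called within slide 1 alone (adjusted p = 0.0632), with the choroid plexus marker mean as a covariate (r = 0.56, adjusted p = 0.0581) or with normexp background correction and quantile normalization (r = 0.41, adjusted p = 0.252). The main permutation, within groups, took no account of slides or tissue make-up. The share of all genes with as high an r with Ahr was not computed, so the relation is not read as particular to Arnt2. Ahr and Arnt2 both also ran against the oligodendrocyte marker mean. For Ahr, r was -0.67 and rho -0.64 (permutation p = 0.0022 and 0.00604, adjusted over 54 relations p = 0.0297 and 0.0512). For Arnt2, r was -0.80 and rho -0.78 (permutation p = 1.7e-04 and 2.8e-04, adjusted p = 0.00918 and 0.00756). Without the 2 arrays with the farthest marker means these were -0.59 for Ahr and -0.82 for Arnt2. Oligodendrocyte and choroid plexus means were both lowest on APP/PS1 vehicle replicate 3 (2.33 and -4.46). The highest oligodendrocyte mean, 4.11 on APP/PS1 vehicle replicate 1, came with a choroid plexus mean of 2.54, but UA replicate 6 had 2.83 and 3.21. Whether the oligodendrocyte relations are separate from the choroid plexus means was not tested. The choroid plexus relations, also among the 54, are not given.

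**Figure D4:**
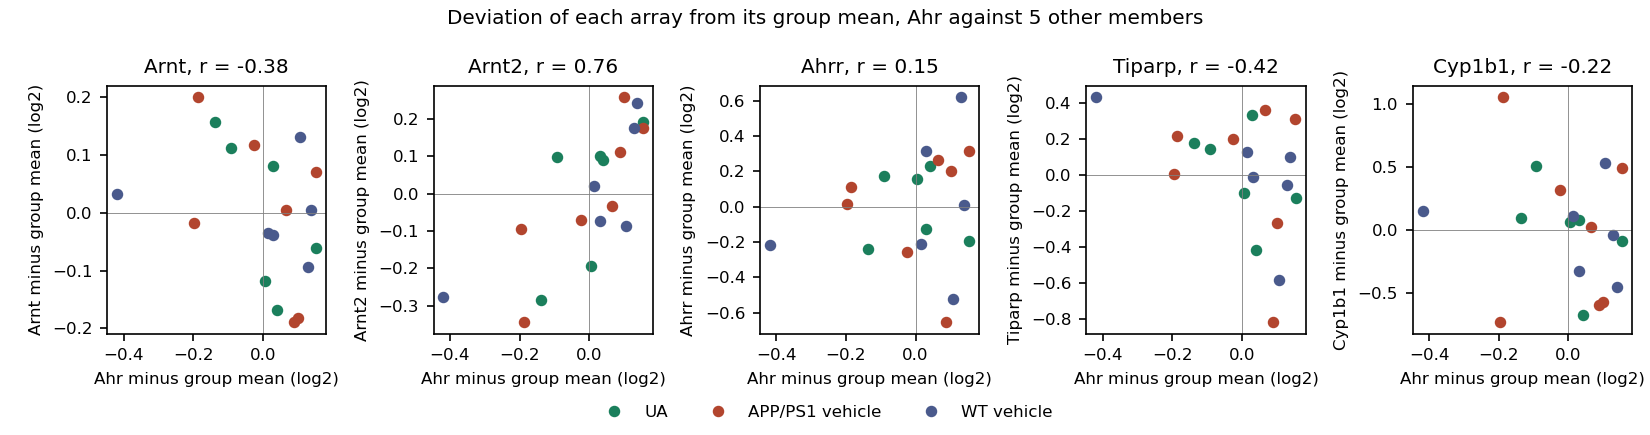
Deviation of each array from its group mean (log2) in Ahr (horizontal) and in Arnt, Arnt2, Ahrr, Tiparp and Cyp1b1 (vertical), coloured by group, with Pearson's r over 19 arrays. The Arnt2 points rise with Ahr (r = 0.76), whereas those of Tiparp (r = -0.42) and Cyp1b1 (r = -0.22) do not, both signs turning with the choroid plexus covariate; the point far to the left is WT replicate 3.

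The genes whose deviations were most like those of each member over the 19 arrays were taken from 14899 genes, by Pearson's r and with no test. For Ahr these were Wbp2 (r = 0.88), Lrsam1 (0.88), Arid3a (0.87), Lrrc4c (0.87) and Caln1 (0.86). Wbp2 fell in APP/PS1 vehicle against WT (-0.37, limma adjusted p = 0.00443) and differed by 0.29 in UA against APP/PS1 vehicle (adjusted p = 0.103). For Arnt2 they were Cadm1 (0.93), Chst8 (0.93) and Sst (0.93), the last encoding the interneuron peptide somatostatin. For Arnt they were Atp1b3 (0.87), Smad5 (0.84) and Itga10 (0.84), and for Ahrr Zfp389 (0.80), Slc16a14 (0.80) and Ninl (0.78). For Tiparp they were Pttg1ip (0.93), Rbms2 (0.93) and Irs1 (0.92), and for Cyp1b1 Twsg1 (0.93), Cp (0.88) and Gstm2 (0.87). The arrays share slides and tissue make-up, and how many genes reach an r of this size was not counted. The strongest negative r with Ahr was -0.90.

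Further genes of the pathway were followed as 75 genes in 6 lists, of which 66 could be tested. None was called in UA against APP/PS1 vehicle (0 of 66) or in UA against WT (0 of 66). Between APP/PS1 vehicle and WT, 4 rose and 2 fell in APP/PS1 vehicle, 6 of 66 or 9.09%, beside the 5.03% called among all genes. That background moved with single arrays, from 1.57% without WT replicate 6 to 8.59% without WT replicate 3, and it moved by over 1.5 times without APP/PS1 vehicle replicate 1, 2, 5, 6 or 7 or WT replicate 2, 4 or 5 as well. With slide as a fixed block 0 of the 6 calls held, and all 6 differences kept their sign.

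In the cytosolic complex that holds unliganded AhR, 2 of 5 genes fell in APP/PS1 vehicle against WT, both of them HSP90 genes, and the other 3 did not pass. Over all genes, 5.03% were called in this comparison and groups did not overlap for 2.33%. Hsp90aa1, the inducible cytosolic HSP90, had its lowest, median and highest array at 6.95, 7.21 and 7.42 in UA, 7.01, 7.06 and 7.18 in APP/PS1 vehicle and 7.22, 7.51 and 7.77 in WT. All 7 APP/PS1 vehicle arrays lay below all 6 WT arrays, and the difference was -0.44 (SE 0.09, limma adjusted p = 0.0111). The Hsp90aa1 call was lost in 5 of 18 alternative fits. Among them were the deposited values (limma adjusted p = 0.143) and slide as a fixed block (-0.50, limma adjusted p = 0.0950). Hsp90ab1, the constitutive form, was 7.11, 7.25 and 7.52 in UA, 7.12, 7.24 and 7.48 in APP/PS1 vehicle and 7.51, 7.63 and 7.67 in WT. Its APP/PS1 vehicle arrays too lay below every WT array, with a difference of -0.32 (SE 0.08, adjusted p = 0.0246; -0.13 with adjusted p = 0.260 after normexp and quantile normalization). Leaving out APP/PS1 vehicle replicate 1 or WT replicate 2, 5 or 6 ended that call too (-0.32 to -0.30, adjusted p 0.0557 to 0.0645). In UA against WT, Hsp90ab1 differed by -0.34 (adjusted p = 0.129) and Hsp90aa1 by -0.31 (adjusted p = 0.338). In UA against APP/PS1 vehicle, Src differed by -0.13 (adjusted p = 0.387) and Hsp90aa1 by 0.13 (adjusted p = 0.507). Ptges3 averaged 4.11 ± 0.06 in UA (SD, n = 6), 4.10 ± 0.18 in APP/PS1 vehicle (SD, n = 7) and 4.18 ± 0.07 in WT (SD, n = 6).

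Of 21 further AhR target genes 16 were tested, 1 rose in APP/PS1 vehicle against WT and 0 were called in the UA comparisons. The median difference over the 16 was 0.03 for UA against APP/PS1 vehicle, 0.05 for APP/PS1 vehicle against WT and 0.03 for UA against WT, beside -0.01, 0.01 and -0.01 over all genes. Ugt1a6b, a glucuronosyltransferase gene, was at -0.04, 0.04 and 0.23 in UA (lowest, median, highest), 0.00, 0.18 and 0.30 in APP/PS1 vehicle and -0.62, -0.29 and 0.05 in WT. It differed by 0.42 in APP/PS1 vehicle against WT (SE 0.09, limma adjusted p = 0.0175) and by -0.09 in UA against APP/PS1 vehicle (adjusted p = 0.642). Ugt1a6a and Ugt1a6b are near-identical copies that a probe may not separate, so this value is uncertain as to gene; the mean over the probes of Ugt1a6b gave 0.33 (adjusted p = 0.101).

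Nqo1, the quinone reductase that AhR and NRF2 both induce, differed by 0.11 in UA against APP/PS1 vehicle (limma adjusted p = 0.824) and by 0.59 in UA against WT (adjusted p = 0.485). Nfe2l2, the gene of NRF2, differed by 0.45 in APP/PS1 vehicle against WT (adjusted p = 0.147). Vegfa differed by -0.22 (adjusted p = 0.226) and Gsta2, a glutathione transferase with close paralogues, by 1.44 (adjusted p = 0.377) in UA against APP/PS1 vehicle. The Gsta2 arrays spread from -3.78 to -1.0 in UA and from -6.30 to -0.84 in APP/PS1 vehicle, and so overlapped widely. Of the 5 targets not tested, Cyp1a2 and Il6 were well above background on 0 arrays, Ugt1a6a on 1 and Fgf21 on 2, and Gsta1 was not named on the array.

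Enzymes of tryptophan breakdown supply AhR ligands, and 10 of 13 were tested. Against WT, 2 rose in APP/PS1 vehicle and 0 fell. Over all genes, 5.03% were called in that comparison and groups did not overlap for 2.33%. Il4i1, the secreted amino acid oxidase that makes indole-3-pyruvate, a precursor of AhR ligands, was at -3.02, -2.08 and -1.88 in UA (lowest, median, highest), -2.68, -2.0 and -1.68 in APP/PS1 vehicle and -3.39, -2.94 and -2.73 in WT. Every APP/PS1 vehicle array lay above every WT array, and the difference was 0.93 (SE 0.18, limma adjusted p = 0.00766), the level in APP/PS1 vehicle being 1.90 times that in WT. In UA against WT it was 0.79 (adjusted p = 0.129). Haao, which makes quinolinate from 3-hydroxyanthranilate downstream of kynurenine, was at -3.11, -3.01 and -2.86 in UA, -3.10, -2.85 and -2.48 in APP/PS1 vehicle and -3.70, -3.26 and -2.96 in WT. It rose by 0.46 in APP/PS1 vehicle against WT (SE 0.12, adjusted p = 0.0414), and the call was lost on leaving out APP/PS1 vehicle replicate 1, 2, 6 or 7 or WT replicate 2, 4, 5 or 6 (differences 0.37 to 0.48, adjusted p 0.0546 to 0.102). The Haao call was also lost in 10 of 18 alternative fits. Among them were normexp and quantile normalization (0.21, limma adjusted p = 0.0622) and the choroid plexus mean as a covariate (0.39, limma adjusted p = 0.0700). In UA against APP/PS1 vehicle Kyat3 differed by -0.19 (adjusted p = 0.317) and Haao by -0.17 (adjusted p = 0.505). Kmo, Aadat and Kynu were below the filter. The 6 microglial markers that rose in the same comparison are given above, and their part in the Il4i1 and Haao values was not tested.

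Hypoxia-inducible factors use ARNT as AhR does. Of 11 of their targets tested, 1 rose in APP/PS1 vehicle against WT: Egln3, a prolyl hydroxylase that tags those factors for destruction, at -3.02, -2.67 and -2.55 in UA, -3.11, -2.58 and -2.41 in APP/PS1 vehicle and -3.73, -3.38 and -2.71 in WT. The groups overlapped, with a difference of 0.64 (SE 0.15, limma adjusted p = 0.0241), which normexp and quantile normalization brought to 0.25 (adjusted p = 0.0817). Leaving out WT replicate 2, 4, 5 or 6 also ended the call, with differences of 0.55 to 0.62 (adjusted p 0.0504 to 0.0671). Car9 differed by 0.19 (adjusted p = 0.121). In UA against APP/PS1 vehicle Pfkfb3 differed by -0.31 (adjusted p = 0.218) and Pdk1 by 0.21 (adjusted p = 0.254). In UA against WT Egln3 differed by 0.58 (adjusted p = 0.229) and Pfkfb3 by -0.29 (adjusted p = 0.517).

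None of 11 other bHLH-PAS factors tested passed in any comparison. The largest difference was that of Npas4, the activity-dependent factor of neurons, at -2.03, -1.22 and -0.73 in UA, -1.12, -0.38 and 0.49 in APP/PS1 vehicle and -1.10, -0.77 and 0.53 in WT. It differed by -1.06 in UA against APP/PS1 vehicle (SE 0.32, limma adjusted p = 0.165) and by -0.81 in UA against WT (adjusted p = 0.528). Hif3a differed by 0.88 in UA against APP/PS1 vehicle (adjusted p = 0.194) and Epas1 by 0.18 in UA against WT (adjusted p = 0.590). In APP/PS1 vehicle against WT, Clock differed by -0.15 (adjusted p = 0.166) and Hif1a by -0.11 (adjusted p = 0.295).

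None of the 13 co-regulators of AhR passed either. In APP/PS1 vehicle against WT the smallest p belonged to Smarca4, the chromatin remodeller BRG1 (-0.20, limma adjusted p = 0.122), and to Relb, an NF-κB subunit that pairs with AhR (-0.19, adjusted p = 0.229). In UA against APP/PS1 vehicle Ncoa3 differed by -0.21 (adjusted p = 0.244) and Ep300 by 0.13 (adjusted p = 0.440). In UA against WT Cul4b, part of the ubiquitin ligase that AhR recruits, differed by 0.63 (adjusted p = 0.673) and Rb1 by 0.14 (adjusted p = 0.71).

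**Figure D5:**
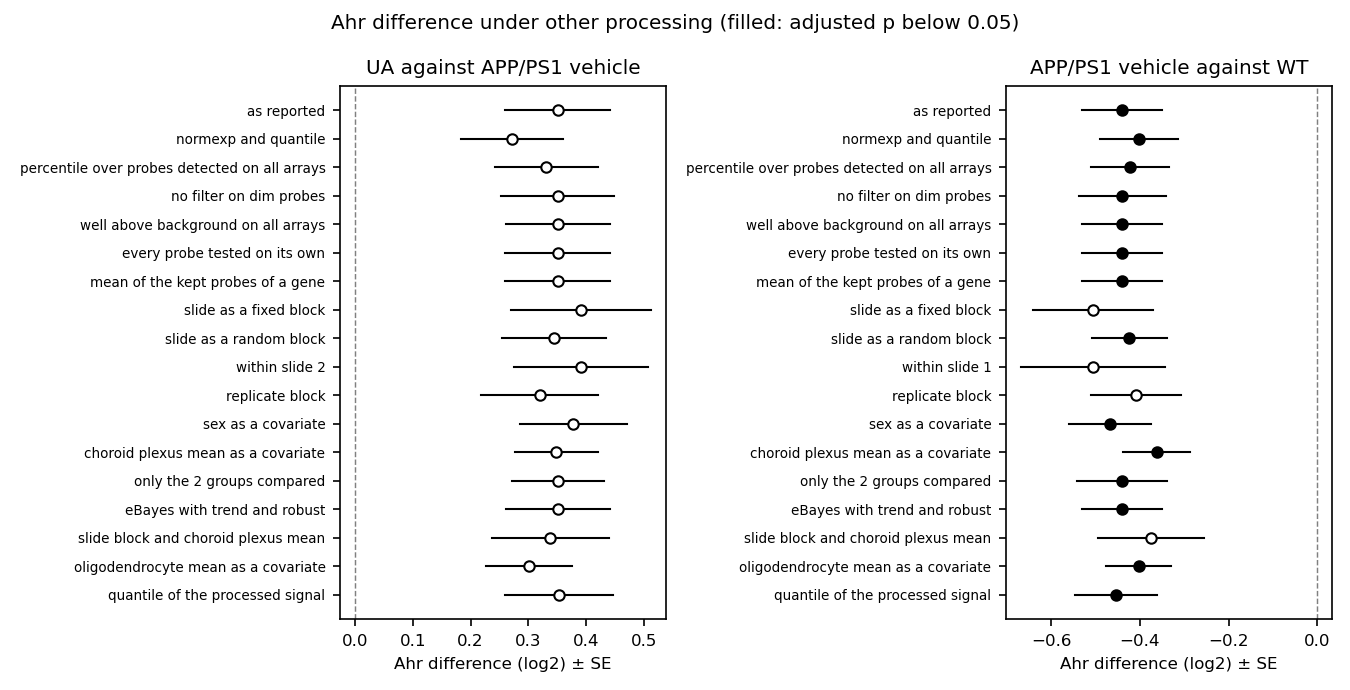
Ahr difference (log2) ± SE for UA against APP/PS1 vehicle (left) and APP/PS1 vehicle against WT (right) under the reported processing and its alternatives; filled points have a limma adjusted p under 0.05. All points lie above 0 on the left, where none is filled, and below 0 on the right, where the points with slide as a fixed block (alone or with the choroid plexus mean), with the replicate number as a block and within slide 1 are open.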

How the data were processed

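Hippocampal RNA of 19 mice was hybridised to Agilent arrays, and the deposited scanner files give spot intensity from Agilent Feature Extraction 12.0.3.1, background-subtracted and dye-normalized within each array, per the file headers. The authors' deposited value table is a score: it matched the z-scaled log10 intensity of each array within 0.005 (column medians -0.28 to -0.17) and served as an alternative. Levels were log2(processed intensity) minus the array's 75th percentile. Control spots (3671 of 62976) were left out. The design named gMeanSignal for the normexp alternative; median signals were used. Accessions were matched to RefSeq symbols, which named 32994 of 56605 probes. Probes well above background on at least 6 arrays were kept (33450), and the brightest stood for its gene (25599 genes, 16103 with a symbol).

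A single limma 3.58.1 fit (R 4.3.3; lmFit, eBayes) over all arrays gave the 3 comparisons (two-sided); p-values were adjusted by Benjamini-Hochberg across every gene tested and called under 0.05. Correlations used group-centred levels and 100000 permutations within groups. The scripts were tested on simulated data with independent noise and 50 changed genes at each fold. For UA against APP/PS1 vehicle, 14% of 1.25-fold, 48% of 1.5-fold and 78% of 2-fold changes were called. Of the calls, 7.03% were false. Small changes in the arrays themselves may therefore go uncalled. As a covariate, sex came from the levels of Xist and of genes on the Y chromosome (females: 1 of 6 UA, 3 of 7 APP/PS1 vehicle, 1 of 6 WT). Arrays per group match the mice per group stated in the design, and 1 array is treated as 1 mouse. Fits with slide and choroid plexus together, with the oligodendrocyte mean, and on quantile-normalized processed signal were added after seeing the data.

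The members and the lists were chosen with earlier results of these data known. Named beside the members were genes of each list past the threshold in any comparison, otherwise the 2 of smallest p per list and comparison, and the 5 genes most like Ahr and 3 most like each other member; Ptges3 and further values of genes so named were added after their values were seen. Residual correlations of same-numbered arrays of different groups ran from -0.55 to 0.39, with 8 of 18 over 0.1. Between UA and APP/PS1 vehicle they were 0.25, 0.39, 0.32 and 0.34 for replicates 2, 3, 4 and 6, and -0.28 and -0.03 for replicates 1 and 5. Differently numbered arrays were not compared, so whether the numbers pair arrays was not tested.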

Additional observations from a re-analysis of the deposited data

Results flagged for a closer look

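3 of 27 sets of arrays (9 probes in 3 groups) held an array far from the rest of its group by Dixon's gap test, and chance marks about 1 in 20. Ahr in WT replicate 3 read -0.72, below the other 5 WT arrays at -0.28 to -0.16; that array also had the highest choroid plexus (3.19) and oligodendrocyte (4.09) marker means of its group. Cyp1a1 in WT replicate 1 read -3.38 and was well above background, whereas the other WT arrays read -8.16 to -6.93 and were not. The second Ahrr probe in WT replicate 6 read -2.21 and was well above background, whereas the other WT arrays read -8.44 to -7.09 and were not; the brighter Ahrr probe was also highest in that array, at -3.83.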

How the results depend on the processing

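Of 729 alternative values of differences, 625 kept their sign and their side of the threshold, 62 lost a call and 42 changed sign; of 130 correlations, 122 did, and of 208 counts, 189 stayed within 1.5 times. No alternative made a member called in UA against APP/PS1 vehicle, where Ahr ran from 0.32 to 0.38 with each array left out (limma adjusted p 0.0928 to 0.253). For APP/PS1 vehicle against WT, where Ahr is the 1 member called, 0 were called with slide as a fixed block (Ahr -0.51, adjusted p = 0.125), within slide 1 (-0.51, 0.175), with slide block and choroid plexus mean together (-0.38, 0.224), and with the replicate number as a block (-0.41, 0.0673); with each array left out Ahr was -0.52 to -0.41 and stayed called. The other pathway genes called in that comparison, 6, were 0 with slide as a fixed block, within slide 1 and with slide block and choroid plexus mean, 1 in the deposited values, 2 with no filter on dim probes, 2 with the replicate block, 3 with only the 2 groups compared, 3 with quantile-normalized processed signal, and 3 to 7 with each array left out (3 without WT replicate 2, 5 or 6); in UA against WT they were 0 to 1 (1 without UA replicate 6). Over all genes, 1288 calls in that comparison became 22 within slide 1, 78 with slide as a fixed block, 338 with the replicate block, 373 with no filter on dim probes, 409 with only the 2 groups and 48 with slide block and choroid plexus mean, but 2169 with slide as a random block, 1969 with sex, 2026 with the oligodendrocyte mean and 804 in the deposited values; with each array left out they ran from 403 (without WT replicate 6) to 2199 (without WT replicate 3). The count of members related to Ahr, 1, was 0 within slide 1, with the choroid plexus covariate and after normexp and quantile normalization.

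Differences that changed sign were all uncalled. Cyp1b1 in UA against APP/PS1 vehicle was 0.018 after normexp and quantile normalization, 0.0064 in the deposited values, 0.0038 with slide as a random block, 0.16 with the replicate block, 0.047 with sex and 0.066 with the oligodendrocyte mean, and -0.14 to 0.16 with each array left out. Tiparp in APP/PS1 vehicle against WT was -0.0033 in the deposited values, -0.0039 with the random block, -0.15 with the choroid plexus mean, -0.088 with that and slide, and -0.011 with the oligodendrocyte mean, and -0.071 to 0.18 with each array left out. With each array left out Tiparp was -0.22 to 0.0010 in UA against APP/PS1 vehicle and -0.15 to 0.049 in UA against WT. Arnt in UA against WT was -0.021 after normexp and quantile normalization, -0.070 as the mean of its probes, -0.082 with slide as a fixed block, -0.015 with the choroid plexus mean and -0.13 with both. Arnt2 in UA against WT was 0.053 with the choroid plexus mean and 0.0039 with slide too, and -0.090 to 0.022 with each array left out. Ahrr in APP/PS1 vehicle against WT was 0.10 with slide as a fixed block and within slide 1 and 0.0037 with the choroid plexus mean added, and -0.14 to 0.088 with each array left out. Cyp1b1 was -0.39 with slide as a fixed block and -0.63 with the choroid plexus mean added in UA against WT, and -0.41 with both in APP/PS1 vehicle against WT. Correlations with Ahr that changed sign were Cyp1b1 at 0.032 within slide 1 and 0.34 with the choroid plexus covariate, Arnt at 0.18 and Tiparp at 0.29 with that covariate, and Ahrr at -0.11 within slide 2. The causes were not tested. The number of arrays limits the precision, and Cyp1a1 lies below background.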
